A study of Homo sapiens with 4 samples.

Results

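NFE2L2, which encodes the transcription factor NRF2, its inhibitor KEAP1 and 7 antioxidant genes that NRF2 is known to activate were examined in Hep3B cells with and without knockdown of UNC50. The members were NFE2L2, KEAP1, NQO1, HMOX1, GCLC, GCLM, TXNRD1, SRXN1 and SLC7A11. They were found by their names in the array annotation, which gave 1 probe for each of the 9 genes, out of 42405 probes in all. Each probe is a 60-base DNA strand, printed in 10 spots for HMOX1 and KEAP1 and in 2 spots for every other member.

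Hep3B is a human hepatocellular carcinoma line, and UNC50 encodes a membrane protein of the Golgi apparatus. The cells had been transfected with a plasmid for a mock hairpin (shR-MOCK) or for 1 of 3 hairpins against UNC50, which target its mRNA at positions 467 (shR-467), 554 (shR-554) and 749 (shR-749), and all were selected with puromycin at 1 μg/ml. Total RNA of each of these 4 cultures was labelled with Cy3 and hybridised to 1 array. The 3 hairpins were taken as 3 replicates of the knockdown, so the spread between them includes what belongs to a single hairpin, and the spread between mock cultures is not known because there was 1 mock array. Values for the hairpins are given in the order shR-467, shR-554, shR-749 unless stated, and those for 4 arrays begin with the mock. The selected cells are populations, in which fewer cells that express a gene and less RNA per cell cannot be told apart.

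In cells at rest, KEAP1 holds NRF2 and hands it to a ubiquitin ligase, so that the protein is degraded. Oxidants and electrophiles modify cysteines of KEAP1, NRF2 then accumulates, pairs with a small MAF protein and binds antioxidant response elements in front of its target genes. Much of this control acts on the NRF2 protein, which these arrays do not measure, and the liver uses the pathway to detoxify xenobiotics and reactive metabolites. The target genes make glutathione (GCLC, GCLM and, through cystine uptake, SLC7A11), keep thioredoxin and peroxiredoxins reduced (TXNRD1, SRXN1), reduce quinones (NQO1) and degrade haem (HMOX1).

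The sequences on which the values rest are shown first. The last 30 bases of the probes, bases 31 to 60 from the 5′ end, are given for the members with the widest differences between arrays and for NFE2L2, which was not measured above background.
HMOX1: ccttggtctaacttttgtgtgaaataataa
TXNRD1: agctgcgctcaaatgtggactgaccaaaaa
GCLC: tgtgtaaatcaggttgtaaaaaggcagata
NFE2L2: gaaaaattgctcaaagaaaaaggagaaaat

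The NFE2L2 probe was poor in G and C, which made up 25% of its bases, a share that 1.11% of all probes reached or undercut. Of those probes, 34.0% were well above background on any array. The GCLM probe shared a stretch of at least 16 bases with 6 probes of other genes. The NFE2L2 probe shared such a stretch with 2 probes of other genes, and the remaining 7 members with none. Whether other transcripts add to the GCLM signal was not tested.

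Antioxidant response elements were looked for in the RefSeq promoters of GRCh38.p14, which run from 250 bases before to 50 bases after a gene's start. The table held 10 promoters for 7 of the 9 members, HMOX1 and SLC7A11 not being among them. The core TGACNNNGC, on either strand, was found in 4 of these 10 promoters and in 13.3% of all 35116. The same core followed by A, a stricter form contained in the first, was in 3 of the 10 and in 3.18% of all. The stricter form was in front of the members GCLM, KEAP1 and TXNRD1 and in the promoters of 5 of 51 other pathway genes, among them GPX2 and GSTP1. Stretches of 60 bases that end before the start are shown for the 3 members and for GPX2, which was past 1.5-fold on average. In these 4 the match lay on the strand opposite to the gene, so the capitals mark its reverse complement, whereas that of GSTP1 lay on the strand of the gene. A match is a run of letters and not a measured binding site.
GCLM, chr1:93909431-93909490, minus strand: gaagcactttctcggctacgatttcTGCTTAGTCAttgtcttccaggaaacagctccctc
KEAP1, chr19:10502772-10502831, minus strand: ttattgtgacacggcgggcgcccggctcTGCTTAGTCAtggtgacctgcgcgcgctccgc
TXNRD1, chr12:104286904-104286963, plus strand: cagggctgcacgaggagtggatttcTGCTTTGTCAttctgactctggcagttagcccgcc
GPX2, chr14:64942834-64942893, minus strand: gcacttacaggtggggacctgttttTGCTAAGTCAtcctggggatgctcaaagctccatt

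The targeted gene, UNC50, had signals of 5010, 1050, 853 and 947 on the 4 arrays, and after scaling 24.0%, 13.7% and 18.7% of the mock remained. All 8 hepatocyte markers looked up, among them ALB and AFP, were well above background on all 4 arrays, with a summed signal of 422805 on the mock array and of 512343 to 642796 on the knockdown arrays. Of 3 fibroblast markers, none was well above background on all 4 arrays, but COL1A2 and DCN were on 3 arrays each. The summed signal of the list was 69.9 on the mock array and 40.4 to 137 on the others. The 3 endothelial and 3 leukocyte markers were all well above background, at summed signals of 252 and 1877 on the mock array, of which CD14 made up 1750. Their part in the results was not tested. All arrays shared 1 slide and 1 scan, with 67.6% to 73.6% of the 58717 spots of an array well above background and no spot saturated.

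Of the 9 members, 8 were well above background on all 4 arrays and were compared. HMOX1 alone reached an average change of 1.5-fold, the threshold of the study's methods, and it was higher, by 0.77 ± 0.81 on the log2 scale (SD, n = 3 hairpins). No member was lower by as much on average, and none differed by 1.5-fold in the same direction with every hairpin. Among all genes well above background on the 4 arrays, 2.34% were at least 1.5-fold higher and 2.92% at least 1.5-fold lower on average, and of all 25148 genes kept, 2.28% and 7.69% were. The genes kept include those well above background on the mock array alone, whereas the knockdown side needed all 3 arrays. Dim genes lower in the knockdown were thus kept more readily than dim genes higher in it. With every hairpin, 0.568% of the well-measured genes were at least 1.5-fold higher and 0.475% at least 1.5-fold lower. The count rested on single hairpins. Without shR-467 no member passed, without shR-749 HMOX1 and TXNRD1 passed, higher and lower, and without shR-554 HMOX1 was at least 1.5-fold higher with both remaining hairpins.

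The differences were tested across all 25148 genes with limma, which assumes that the lone mock array varies like the hairpins. It called 0 genes (0%) at an adjusted p under 0.05 and 381 at an unadjusted p under 0.05, the methods' t-test 646 unadjusted and 0 adjusted, and the adjusted p of each of the 8 members was 1.00 in limma. HMOX1 ranked 2002 of 25148 by its unadjusted p, and NQO1, SRXN1 and TXNRD1 ranked 2519, 3405 and 3622. With 1 mock array against 3, an exact permutation test cannot give a p below 0.25. The differences below are thus descriptions of 4 arrays.

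**Figure D1:**
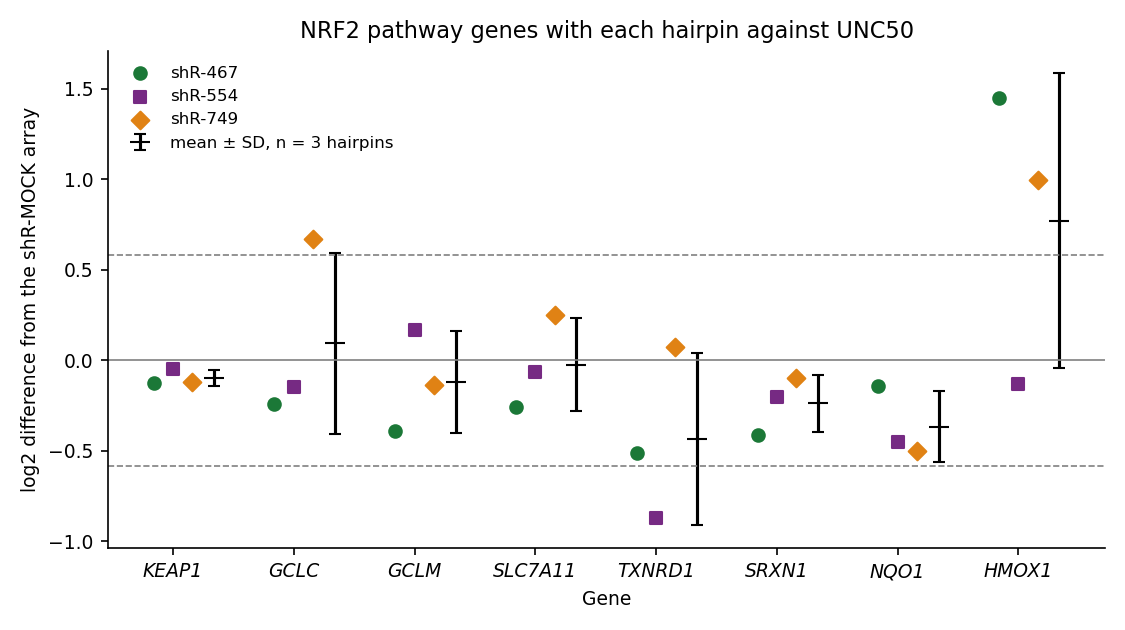
Log2 difference of each gene from the shR-MOCK array (vertical axis) for the 8 members that were well above background, with 1 symbol per hairpin and a bar for the mean ± SD of the 3 hairpins. The solid line marks no difference and the dashed lines 1.5-fold; HMOX1 lies above the upper line with shR-467 and shR-749, GCLC with shR-749 alone, and TXNRD1 below the lower line with shR-554.

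The regulators came first. NFE2L2 was read from a probe on chromosome 2, 178095693 to 178095752 of hg19, and was on no array well above background. Its signals were 4.3, 5.2, 6.2 and 6.0, against a lowest signal well above background of 21.2 to 28.3 among the spots of an array. No fold is given, and these arrays therefore hold no measured change of NRF2 mRNA. Whether the transcript or the probe sets this low signal was not tested.

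KEAP1, at chromosome 19, 10597262 to 10597321, gave signals of 2996, 2399, 3599 and 2783. These signals are not yet scaled, and the order of the arrays follows in part their brightness, whose 75th percentile was 1120, 978, 1390 and 1130. After division by that percentile, KEAP1 stood at 91.7%, 96.8% and 92.1% of the mock level, a mean log2 difference of -0.10 ± 0.04 (SD, n = 3 hairpins). It was the member that differed least between hairpins. Its 10 spots on 1 array had an SD of 0.04 to 0.07 on the log2 scale, and the spots of the mock array overlapped those of every hairpin.

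HMOX1 encodes haem oxygenase 1, which opens the haem ring and releases iron, carbon monoxide and biliverdin. Its probe lies at chromosome 22, 35790122 to 35790181. The signal was 2609 in the mock, and 6233, 2960 and 5246 with the hairpins. The shR-467 and shR-749 arrays were thus bright, and the mock and shR-554 arrays dim.

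Scaled, HMOX1 stood at 274% of mock with shR-467 and 199% with shR-749, but at 91.4% with shR-554, which are log2 differences of 1.45, 1.00 and -0.13. The spots of 1 array lay close together, from 1.38 to 1.52 with shR-467, from 0.90 to 1.04 with shR-749, from -0.18 to -0.07 with shR-554 and from -0.07 to 0.08 on the mock array, all as log2 difference from the mean mock spot. The gap between the bright and the dim arrays was larger than the whole range of the spots on any of them. Spots share 1 culture, so this bears on the array and not on the culture. The mean of the 3 hairpins was smaller than their SD.

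shR-467 and shR-749, with the higher HMOX1, left more UNC50 than shR-554, which left the least. With 3 hairpins no relation between both genes was computed. By hairpin, 6.25%, 4.49% and 5.29% of all well-measured genes were at least 1.5-fold higher, and 4.32%, 8.34% and 6.33% at least 1.5-fold lower. Without shR-554 the mean log2 difference of HMOX1 was 1.22, without shR-467 it was 0.43 and without shR-749 it was 0.66.

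**Figure D2:**
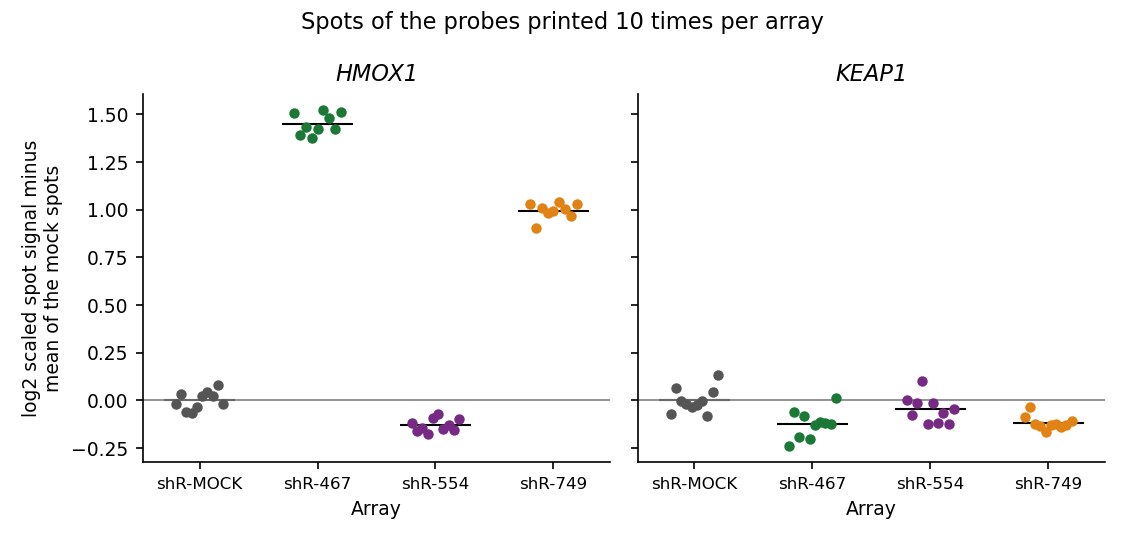
Spots of the HMOX1 probe (left) and the KEAP1 probe (right) on the 4 arrays, as log2 scaled signal minus the mean of the mock spots, with 1 point per spot not marked as outlier and a line at the mean of each array. HMOX1 spots with shR-467 and shR-749 lie well apart from those of the mock and shR-554 arrays, while the KEAP1 spots of the 4 arrays overlap.

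GCLC and GCLM encode the catalytic and the modifier subunit of glutamate-cysteine ligase, the rate-limiting enzyme of glutathione synthesis. GCLC, at chromosome 6, 53362197 to 53362256, gave signals of 4020, 2975, 4504 and 6457. Scaled, it was at 84.8%, 90.3% and 159% of the mock level, so that shR-749 alone stood above mock. The mean log2 difference was 0.09 ± 0.50 (SD, n = 3 hairpins), and it ran from -0.19 without shR-749 to 0.26 without shR-467.

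GCLM, at chromosome 1, 94352810 to 94352869, gave signals of 4565, 3040, 6373 and 4189. Scaled, GCLM was at 76.3%, 112% and 90.9% of mock, so the array that stood above mock was that of shR-554, whereas for GCLC it was that of shR-749. Its mean log2 difference was -0.12 ± 0.28 (SD, n = 3 hairpins), and its 2 spots on the shR-749 array were 0.41 apart on the log2 scale, the widest gap of any member printed in 2 spots. With 1 hairpin left out, the mean ran from -0.26 to 0.02.

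SLC7A11 encodes the light chain of the cystine-glutamate exchanger, which brings in cystine for glutathione. Its probe, at chromosome 4, 139085433 to 139085492, gave signals of 825, 603, 978 and 991. Scaled, it was at 83.8%, 95.5% and 119% of mock with the 3 hairpins, on both sides of the mock level, with a mean log2 difference of -0.02 ± 0.26 (SD, n = 3 hairpins) that ran from -0.16 to 0.09 with 1 hairpin left out.

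TXNRD1 encodes the cytosolic thioredoxin reductase, a selenoprotein that keeps thioredoxin reduced. The probe, at chromosome 12, 104732949 to 104733008, gave signals of 924, 566, 628 and 982. Scaled, TXNRD1 was at 70.2%, 54.8% and 105% of the mock level, lower with shR-467 and shR-554 and close to mock with shR-749. The mean log2 difference was -0.43 ± 0.48 (SD, n = 3 hairpins), which is the lowest of the members, and it was -0.69 without shR-749 but -0.22 without shR-554. Where HMOX1 was bright with shR-467 and shR-749 and dim with shR-554, TXNRD1 was dim with shR-467 and shR-554.

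SRXN1 encodes sulfiredoxin, which restores over-oxidised peroxiredoxins. At chromosome 20, 627563 to 627622, it gave signals of 8354, 5489, 9010 and 7865. It was below mock with each hairpin after scaling, at 75.2%, 86.9% and 93.3%, a mean log2 difference of -0.24 ± 0.16 (SD, n = 3 hairpins) and under 1.5-fold throughout. Without shR-467 the mean was -0.15.

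NQO1 encodes a quinone reductase and is widely used as a readout of NRF2. Its probe, at chromosome 16, 69744274 to 69744333, gave signals of 459, 363, 417 and 327, the highest in the mock. Scaled, NQO1 was at 90.6%, 73.1% and 70.6% of mock. Its mean log2 difference of -0.37 ± 0.19 (SD, n = 3 hairpins) was larger in size than the spread between hairpins, as it was for KEAP1 and SRXN1. NQO1 did not reach 1.5-fold with any hairpin.

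KEAP1, SRXN1 and NQO1 were the 3 of 8 members below mock with every hairpin, a pattern of any size that 18.4% of all well-measured genes showed, and no member was above mock with every hairpin, as 20.2% of those genes were. The median of the 8 mean log2 differences was -0.11, against 0.00 over all genes well above background on the 4 arrays. For the single hairpins the member medians were -0.25, -0.14 and -0.01, against 0.04, 0.00 and -0.03 over those genes. By hairpin, HMOX1 was past 1.5-fold with shR-467, TXNRD1 with shR-554, and GCLC and HMOX1 with shR-749. These 3 comparisons share the mock array.

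The other genes of the pathway were read from lists of 65 genes ordered by role, of which 62 were measured, all well above background on the 4 arrays. GSTA1 and AKR1C2 had no probe under these names, and CBR3 was on no array well above background. On average over the hairpins, 0 of the 62 were at least 1.5-fold higher and 5 were at least 1.5-fold lower, against 2.34% and 2.92% of all well-measured genes. The 5 were AKR1B10, UGT1A6, GPX2, AKR1C1 and AKR1C3, and the probe used for AKR1C1 may measure another gene, as described below. AKR1B10 was the one that passed with every hairpin, as did 0.475% of all well-measured genes in that direction. The lists were chosen with earlier results of these data known, and the study had itself listed AKR1B10 as lower on these arrays. The counts are thus no independent result about the lists. For AKR1B10 the study also reported real-time PCR in cells with UNC50 knockdown or overexpression, which it gave as bearing out the arrays. In limma none of the 62 had an adjusted p under 0.05.

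Of these 5 genes, 4 belonged to the list of 9 enzymes for quinones, carbonyls and conjugation, in which 7 genes were measured with a median log2 difference of -0.68. AKR1B10, an aldo-keto reductase that reduces aldehydes and retinal, gave signals of 354, 43.2, 60.4 and 202. It differed from mock by -2.17 ± 1.17 on the log2 scale (SD, n = 3 hairpins), and its second probe by -2.27 ± 1.24.

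AKR1C1 and AKR1C3 reduce steroids and aldehydes and belong to a cluster of near-identical genes on chromosome 10, whose probes may share signal. AKR1C1 gave 13142, 6423, 6590 and 11441, and AKR1C3 gave 2385, 1459, 1630 and 1510. Their mean log2 differences were -0.79 ± 0.55 and -0.68 ± 0.17 (SD, n = 3 hairpins), and AKR1C3 varied least among the 5 lower genes. The AKR1C1 probe used lies on the minus strand at 5032153 to 5032212, and the second probe of that name on the plus strand at 5005636 to 5005695. That second probe showed 0.00 with shR-749 and a mean of -0.58 ± 0.51, just short of 1.5-fold. Without shR-554, the mean of the AKR1C1 probe used was -0.53, also short of 1.5-fold. As the places lie on opposite strands, the probe used may measure another gene of the cluster. Whether AKR1C1 itself was 1.5-fold lower is therefore uncertain.

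UGT1A6 conjugates phenols with glucuronic acid and shares its last exons with the other UGT1A genes, which its probes may therefore measure as well. Its signals were 7776, 4835, 5882 and 2905, with a mean log2 difference of -0.88 ± 0.49 (SD, n = 3 hairpins), and its second probe gave -1.28 ± 0.51. NQO2, a paralog of NQO1 named after its value was seen, was above mock with each hairpin, by 0.30 ± 0.14 on average, which is under 1.5-fold.

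**Figure D3:**
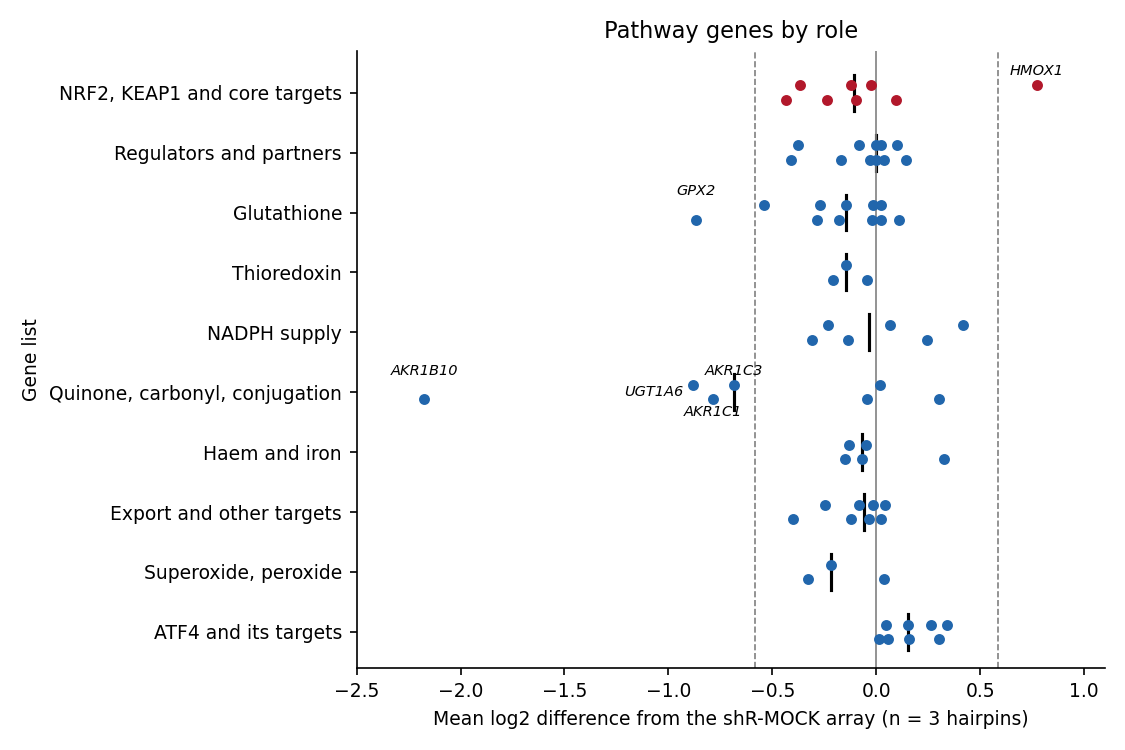
Mean log2 difference from the shR-MOCK array over the 3 hairpins (horizontal axis) for each measured gene, in rows by the role of the gene. Short black lines are list medians and dashed lines 1.5-fold; HMOX1 is the one gene beyond the right line, and AKR1B10, UGT1A6, GPX2, AKR1C1 and AKR1C3 lie beyond the left one.

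GPX2, a glutathione peroxidase of epithelia, was the fifth of the lower genes. Its signals were 12845, 8994, 10249 and 4125, and it differed from mock by -0.87 ± 0.70 on the log2 scale (SD, n = 3 hairpins), most with shR-749. Without shR-749 the mean was -0.48, under 1.5-fold, so the count of GPX2 among the lower genes rests on that array. Of the 11 measured genes for glutathione use, GPX2 was the one past 1.5-fold, 6 were below mock with every hairpin, against 18.4% of all well-measured genes, and the median log2 difference of the list was -0.15. GSTP1, a glutathione S-transferase named after its values were seen, came next, at -0.54 ± 0.20.

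The partners and regulators of NRF2 stayed within 1.5-fold on average, 11 of 11, with mean log2 differences from -0.41 to 0.15 and a median of -0.00. So did most genes, as 2.34% of all well-measured genes were at least 1.5-fold higher and 2.92% at least 1.5-fold lower. BACH1, the repressor that competes with NRF2 at HMOX1, gave signals of 2448, 1834, 3050 and 2704 and differed by -0.03 ± 0.18 (SD, n = 3 hairpins), and a second, dimmer probe by 0.21 ± 0.36. With the hairpins of higher HMOX1, the brighter BACH1 probe was below mock for shR-467 and above it for shR-749. Whether BACH1 bears on HMOX1 here was not tested. SQSTM1, which encodes the autophagy receptor p62 that binds KEAP1, was lower by 1.5-fold with shR-554 alone, by -0.91 on the log2 scale, and NFE2L3, a relative of NRF2, with shR-467 alone, by -0.59. These and the other genes of the regulator and iron lists were named after their values were seen. For CUL3, the scaffold of the KEAP1 ligase, the brighter probe gave 0.00 ± 0.03, while a second probe close to background, with signals of 23.0 to 47.3, gave 0.64 ± 0.37.

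None of the 3 thioredoxin genes, the 6 genes for NADPH supply and the 5 for haem and iron reached 1.5-fold on average in either direction. Few genes did, 2.34% of all well-measured genes upward and 2.92% downward. Their list medians were -0.15, -0.04 and -0.07 on the log2 scale. The ferritin genes FTH1 and FTL, which store iron, and the biliverdin reductase genes BLVRA and BLVRB lay between -0.15 and -0.05. Ferritin genes have many processed copies, and the other FTH1 probes gave -0.24 and 0.10. FECH, the remaining gene of that list, was above mock with every hairpin, by 0.33 ± 0.17, as were 20.2% of all well-measured genes. The 8 genes for export and other targets had a median of -0.06, and none passed, nor did any of 3 enzymes for superoxide and peroxide outside the core pathway, at a median of -0.22. For ABCC3, an exporter of conjugates, the probe used gave -0.25 ± 0.34 and a second, dimmer probe 0.82 ± 0.46, so the probes differ in direction. The array annotation places the probes used for TXN, TALDO1, IDH1 and FTH1 on another chromosome than that of the gene, 4 of 68 probes compared, so their values are uncertain. One of them, TXN at -0.15, is the median of the thioredoxin list. Only the chromosome was compared, so a probe placed elsewhere on the chromosome of its gene was not found. GGT1, named for this reason, has its probe used at 18762212 on the minus strand of chromosome 22. The other GGT1 probe lies at 25023862 on the plus strand.

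SLC7A11 is also a target of ATF4, the factor of the integrated stress response, and 8 genes of that response were therefore set beside it. None reached 1.5-fold on average, as was so for most well-measured genes, and their median log2 difference was 0.15. With shR-749, 3 of the 8 were at least 1.5-fold higher, CHAC1 by 0.90, DDIT3 by 0.99 and ATF3 by 0.78, named after their values were seen, against 5.29% of all well-measured genes. Their other probes differed in part, since the second CHAC1 probe showed 0.58, just short of 1.5-fold, and 1 of the 4 ATF3 probes was below mock with every hairpin, by -0.47 ± 0.26 on average. shR-749 was also the hairpin with GCLC at 0.67 and SLC7A11 at its highest, 0.25. With the other hairpins none of the 8 was 1.5-fold higher, and ASNS, which makes asparagine, was lower by 1.5-fold with shR-467, at -0.59. The element TGATGNAA, to which ATF4 and its partners can bind, was in 3 of the 14 promoters of these genes, those of ASNS, ATF3 and CHAC1, and in 3.62% of all promoters.

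**Figure D4:**
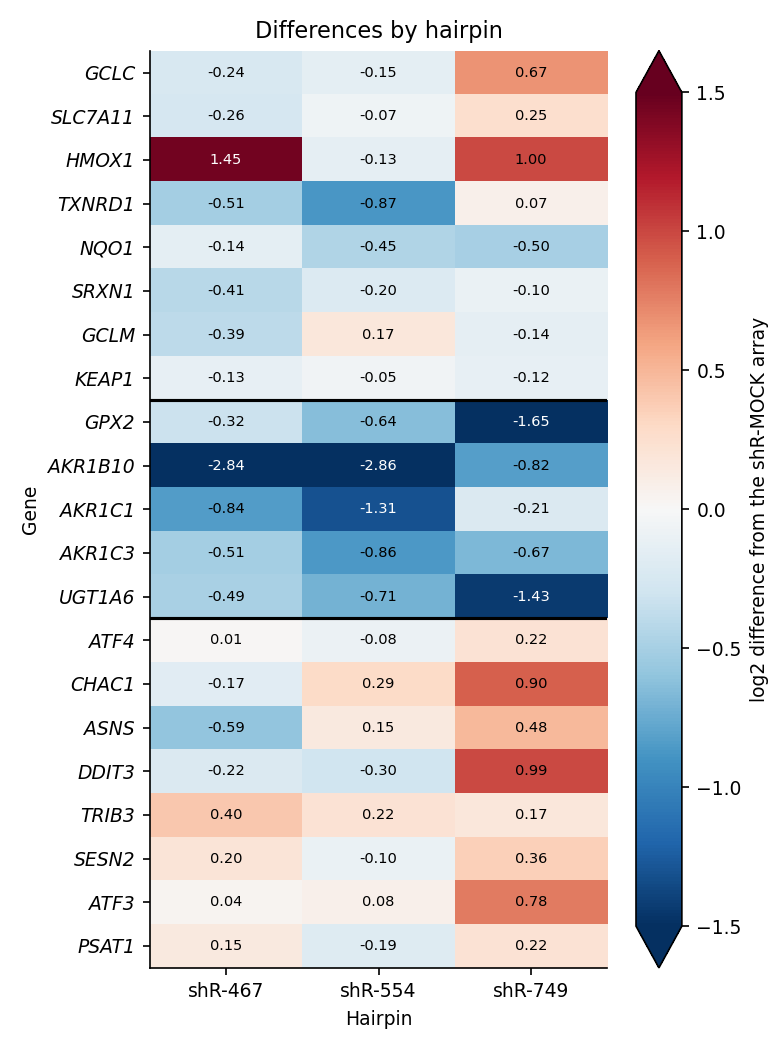
Log2 differences from the shR-MOCK array by hairpin (columns) for the 8 measured members (top), the 5 pathway genes at least 1.5-fold lower on average (middle) and ATF4 with 7 of its targets (bottom). Colours saturate at 1.5 in either direction. In the top block all members but HMOX1 are below mock with shR-467, and all but GCLM with shR-554. With shR-749 the members lie on both sides of mock. The genes of the middle block were chosen for their lower mean.

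The genes most like HMOX1 across the 3 differences from mock, among those well above background on all arrays, were HSD17B14, CYP19A1 and APOA5, at Euclidean distances of 0.12, 0.25 and 0.38 on the log2 scale. HSD17B14, a steroid dehydrogenase, differed by 1.42, -0.20 and 0.90, and CYP19A1, the aromatase, by 1.65, -0.27 and 0.96. For TXNRD1, the closest named genes were CLNS1A at 0.02 and KRT19 at 0.06, with an uncharacterised transcript between them. These rest on 3 differences per gene, with 21487 genes to choose from, and all comparisons share the mock array.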

How the data were processed

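Total RNA of 4 Hep3B cultures was measured on 1-colour arrays. The authors deposited the scanner intensity of each spot, background-subtracted by Agilent Feature Extraction 10.7.1.1, and a table of log2 values with equal quantiles across arrays, used as an alternative. The log2 intensity minus the 75th percentile of each array's non-control spots was taken, outlier spots (254 to 466 per array) were dropped, and the rest were averaged by probe. A probe counted as well above background where a share of at least 0.5 of its spots was so marked, and it was kept if this held for the mock or for all 3 knockdown arrays, and the brightest kept probe stood for a gene, giving 25148 genes, of which 21487 were well above background on all arrays. Precision is limited by the number of arrays and by dim signals. Positions of probes follow the hg19 coordinates in the array files, and exons of that build were not used here. Promoter sequences are RefSeq's, on GRCh38.p14.

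Genes were called by the methods' threshold of 1.5-fold on the mean of 3 log2 differences from mock, and tested with limma 3.58.1 in R 4.3.3 (lmFit, eBayes with trend, Benjamini-Hochberg over all genes, 2 residual degrees of freedom). The steps were run on simulated arrays, in which the mock varied like the hairpins and planted changes were large and alike in every hairpin. Such data cannot test the assumption about the lone mock array, or changes as small or uneven as those of the members. Each hairpin had 1 array, so differences between hairpins, cultures and arrays cannot be told apart, and p-values measure only the spread between these arrays. The members, lists and naming rule were chosen with earlier results of these data known. Named were all members, pathway genes past 1.5-fold on average, the 3 genes closest to the members with the largest rise and fall, and genes stated in the text as named after their values were seen. Python 3.11.15 with numpy 2.4.6, pandas 2.3.3 and matplotlib 3.10.9 was used.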

Additional observations from a re-analysis of the deposited data

How the results depend on the processing

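The members' mean log2 differences were recomputed under 12 alternatives (quantile normalization, median scaling, normexp with quantile normalization, the authors' processed values, outlier spots not dropped, all probes of a gene averaged, low signals raised, 2 other filters on dim probes, and each hairpin left out). With all hairpins, no sign turned among 72 values and the largest move was 0.07, but 39 values were identical to those reported, as several alternatives leave bright genes as they were. HMOX1 ran from 0.74 to 0.77. The sign turned for GCLC, SLC7A11 and GCLM, each when 1 hairpin was left out. At 2-fold, 0 members and 1 pathway gene passed on average. With a hairpin left out, the members past 1.5-fold on average numbered 0 to 2, those past it with every hairpin 0 to 1, the pathway genes on average 4 to 6 (AKR1C1 fell short without shR-554, GPX2 without shR-749), and the genes called by limma 0 to 2, the highest without shR-554. limma called 4 genes with normexp and quantile normalization, none of them a member or a listed pathway gene, and 0 genes without the trend, and the methods' t-test called 646 unadjusted and 0 after adjustment. Among all genes, the lower share of those past 1.5-fold was 77.1%, but 69.9% with quantile normalization, 69.8% with the authors' values, 52.6% with normexp, 55.6% for genes well above background on all arrays, 62.8% with no filter on dim probes and 61.9% without shR-554, while the median moved by less than 0.1. The filter kept a dim gene on the mock array alone but needed all 3 arrays on the knockdown side, which favours lower genes. Of the genes well above background on all arrays, 627 were lower and 502 higher, against 1935 and 574 of all genes kept. How much of the lower share the filter accounts for was not tested. A block for slide or scan was not run, as 1 slide and 1 scan held all arrays. No paired analysis was possible because the mock group has 1 array, so that it shares fewer than 2 replicate numbers with the hairpins, and these numbers were given in accession order.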
